A study of Mus musculus with 12 samples.

Results

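The ETS family of transcription factors was followed in mouse tongue through 10 of its genes: Etv6, Etv4, Etv5, Ets1, Ets2, Elf1, Elf3, Erg, Fli1 and Spi1. They were looked up by symbol among 32498 named genes in the 12 libraries, each was found on 1 row, and all 10 were above the mean level of 0.1 FPKM required of a gene to enter the comparison. Etv6 was selected on its p-value in the comparison of the groups given here, among the smallest of the genes lower with treatment, and the other 9 were added to set epithelial, endothelial and lymphoid or myeloid ETS genes beside it. The differences between the groups are therefore given for these genes as descriptions without a test.

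C57BL/6 mice (marked Wt in the column names of both groups), 5 weeks old when purchased, drank the carcinogen 4-nitroquinoline 1-oxide (4NQO, a compound that causes oral squamous tumors) at 100 µg/mL for 16 weeks. From week 4 they were given gallic acid (GA, a plant phenolic acid) by gavage at 100 mg/kg 5 times per week, or an equal volume of the vehicle. RNA-seq was made from tongue tissue labelled as tumor and tumor-associated, with 6 vehicle and 6 GA libraries. Every mouse of both groups thus had received 4NQO, and no library came from a tongue without it. The labels give replicate numbers but no animals, so that each library was taken as 1 mouse and the spread between libraries may be partly technical.

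ETS factors share a winged-helix domain that binds DNA around a GGAA core, and most of them activate transcription. Etv6 (also called TEL) is a repressor that polymerizes through its pointed domain and recruits corepressors. Etv4 and Etv5 are targets and effectors of FGF and ERK signalling, Ets1 and Ets2 are activated by phosphorylation downstream of Ras, Elf3 belongs to differentiating epithelia, Erg and Fli1 to endothelium, and Spi1 (PU.1) to myeloid cells and B cells.

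The libraries held 18039779 to 25190020 reads on genes, as recovered from the FPKM values (reads per kilobase of gene, scaled to the total of the library). Markers of basal and differentiated epithelium, skeletal muscle, fibroblasts, endothelium and macrophages were all present, as a tongue sample would hold. Lymphocyte markers were sparse, with a summed level of 5.53 to 10.5 FPKM over 12 genes of T and NK cells against 3051 to 12106 FPKM over 10 genes of basal epithelium. Some libraries stood apart from the rest. Lipf, a lipase of tongue glands, was at 8079 to 26220 FPKM in vehicle libraries 3 and 5 and GA library 2, and below 0.5 FPKM in the other 9. Y-linked genes were read in vehicle libraries 1 to 4 and GA library 1, thus in 4 of 6 vehicle and 1 of 6 GA libraries. Xist, a transcript of the inactive X of females, was at most 0.030 FPKM in these libraries. In the other 7 it was at 18.7 to 43.9 FPKM. The labels give no sex, but these are the patterns of male and female mice, so that sex was unevenly divided between the treatment groups. Neutrophil markers were high in vehicle libraries 4 and 5 and GA library 2. For some results, values without the libraries with high Lipf or with Y-linked reads are given as well. In bulk tissue, fewer cells of a type and less RNA per cell cannot be told apart.

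The promoters of Etv6 and Ets2 are shown because these 2 genes, of all pairs of members with Etv6, were the most alike in their variation between libraries (r = 0.72, given with its basis further on). RefSeq promoter windows of GRCm38.p6 were matched for 6 of the 10 members. The 250 bases before the RefSeq start are printed 5′ to 3′ on the strand of the gene. They are chr6:134035450-134035699 (plus strand) for Etv6 and chr16:95702157-95702406 (plus strand) for Ets2. In the gene models used for exon lengths (GENCODE M21), Etv6 starts at 134035700, just after its window. Ets2 starts there at 95702075, so that its window lies inside the gene. Capitals mark GGAA or, for the other strand, TTCC.
Etv6: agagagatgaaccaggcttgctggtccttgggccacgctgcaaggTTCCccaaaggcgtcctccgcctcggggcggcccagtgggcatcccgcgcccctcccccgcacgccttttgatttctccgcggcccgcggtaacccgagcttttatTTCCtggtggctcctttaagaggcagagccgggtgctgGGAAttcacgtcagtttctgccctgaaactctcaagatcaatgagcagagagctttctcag
Ets2: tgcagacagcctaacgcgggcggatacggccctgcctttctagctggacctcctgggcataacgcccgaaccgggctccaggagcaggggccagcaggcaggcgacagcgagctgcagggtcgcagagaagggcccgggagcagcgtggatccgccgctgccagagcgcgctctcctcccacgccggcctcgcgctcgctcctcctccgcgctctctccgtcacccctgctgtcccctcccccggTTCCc
The Etv6 window held 3 GGAA matches on both strands together and the Ets2 window 1, where the median over 32851 windows was 3 and 93.4% of windows held at least 1. GGAA and TTCC cannot overlap each other. The longer ETS sequence CCGGAAGT, on either strand, was in neither window and in 2.88% of all windows. These matches describe letters only, and no binding was measured.

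Levels per length could be set side by side because FPKM divides by gene length. Ets2 had the highest level of the 10, with a mean of 21.6 ± 2.25 FPKM (SD, n = 12), and Fli1 the lowest, with 1.95 ± 0.823 FPKM. Between them stood Elf1 (10.6 ± 2.08 FPKM), Etv6 (8.76 ± 1.88 FPKM), Elf3 (8.82 ± 5.16 FPKM), Etv4 (7.32 ± 4.78 FPKM), Etv5 (7.21 ± 1.28 FPKM), Ets1 (3.16 ± 1.13 FPKM), Spi1 (2.86 ± 1.86 FPKM) and Erg (2.50 ± 0.910 FPKM). The broadly expressed and epithelial members thus lay above the vascular and myeloid ones. In the order of mean log2 levels, 3 of the 9 steps between neighbours passed an exact two-sided sign-flip permutation test over the 12 libraries with Benjamini-Hochberg adjustment. Ets2 was above Elf1 in 12 of 12 libraries (mean log2 difference 1.05, exact adjusted p = 0.0022). Etv4 was above Ets1 in 12 of 12 (1.07, exact adjusted p = 0.0022), and Erg above Fli1 in 11 of 12 (0.35, exact adjusted p = 0.0381). The first 2 of these had the smallest p that 4096 sign flips can give, 0.000488 before adjustment. Elf1 stood above Etv6 in 9 of 12 libraries without passing (0.27, exact adjusted p = 0.0505). The GA values of Etv6, low by its selection, enter its place in this order. Its median ratio to Elf1 was 0.88 with vehicle and 0.72 with GA. The steps from Etv6 to Elf3, Elf3 to Etv5, Etv5 to Etv4, Ets1 to Spi1 and Spi1 to Erg did not pass either (exact adjusted p from 0.353 to 0.663), and pairs that are not neighbours were not tested. Within either group alone, 6 libraries allow so few sign flips that adjustment over 9 steps leaves almost no room to pass, and 0 steps did.

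The members also differed in how much they varied. Within groups, the SD of log2 levels was 0.13 for Ets2, 0.17 for Etv6, 0.25 for Etv5 and 0.28 for Elf1. The spread of Etv6 entered the p-value on which it was selected, so that its low value is part of the choice. The SD was 0.58 for Ets1, 0.61 for Erg, 0.63 for Fli1, 0.67 for Elf3, 0.80 for Etv4 and 0.85 for Spi1. Thus Spi1 ranged 6.78-fold over the 12 libraries and Ets2 1.43-fold.

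Etv6 (chromosome 6 of GRCm38, 134035700 to 134270158, plus strand, 10 exon blocks) was lower in the GA group, the pattern for which it was chosen. Vehicle libraries 1 to 6 had 10.8, 8.30, 9.40, 10.8, 12.2 and 9.99 FPKM. The GA libraries 1 to 6 had 6.02, 8.42, 7.12, 7.43, 7.01 and 7.60 FPKM. The groups touched at a single point, where GA library 2 lay above vehicle library 2, and the other GA libraries lay below every vehicle library. The means were 10.3 ± 1.34 FPKM with vehicle and 7.27 ± 0.789 FPKM with GA (SD, n = 6 each), a ratio of 0.709. On the log2(FPKM + 0.1) scale, which understates changes of low genes, the difference was -0.49 with a standard error of 0.11. These values rest on 777 to 1626 reads per library, and 2.26% of its exon bases overlap Gm17089 on the other strand. Whether counting used strand is not stated.

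Leaving out each library in turn gave differences of -0.55 to -0.44, which, as Etv6 was selected on these libraries, describe the values and do not support them. It was -0.55 when only the 7 libraries free of Y-linked reads were kept (2 vehicle, 5 GA), and -0.50 over the 9 with low Lipf. A term for the neutrophil markers gave -0.42 and a term for Y-linked reads -0.60, the ends of the range over 28 alternatives. All 10 neutrophil markers had lower mean log2 levels with GA (median log2 difference -0.78, 0 of 10 called). Their summed levels were 1109 to 2618 FPKM with vehicle and 236 to 1832 FPKM with GA. These sums came mostly from S100a8 and S100a9 and did not follow the mean log2 level of the list. The highest sum was that of vehicle library 6, which was not among the libraries with high neutrophil markers. Those libraries, vehicle 4 and 5 and GA 2, had sums of 1794, 1906 and 1832 FPKM. The part of the neutrophil markers in the Etv6 values was not tested beyond the term above.

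**Figure D1:**
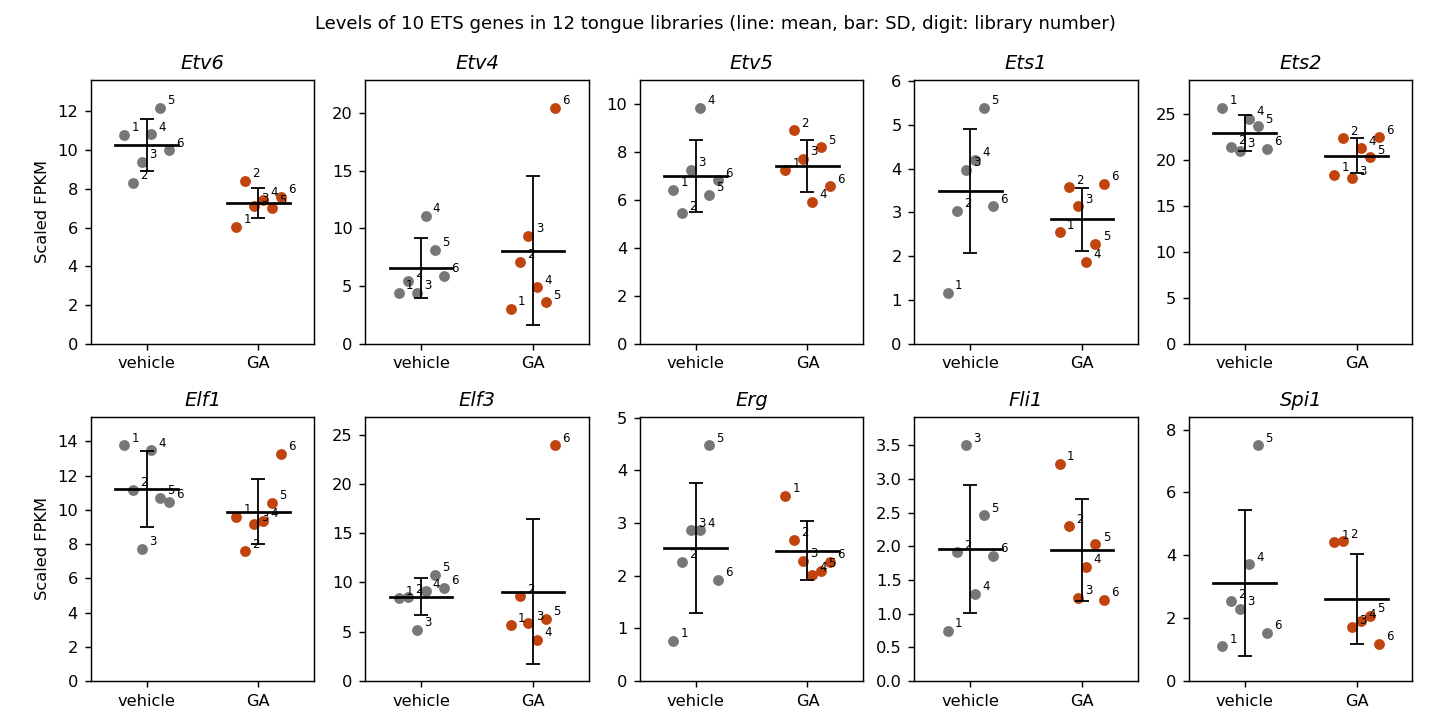
Scaled FPKM of the 10 ETS genes in each of 6 vehicle and 6 GA libraries (points with library numbers), with the mean (line) and SD (bar). Etv6 is the gene whose groups barely overlap, while in Etv4 and Elf3 GA library 6 stands alone at 20.4 and 23.9 FPKM.

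The comparison asked which genes differ in tongues of GA-treated mice. Over all genes, limma called 0 of 16847 (0%) at an adjusted p below 0.1 with an absolute log2 difference of at least 0.58, and 0 of the 10 members. An unadjusted p below 0.05 was reached by 364 genes (2.16%), 176 of them lower with GA (1.04%). That share is less than the 0.05 that this threshold gives on average where no gene differs. With voom on the recovered reads, 0 genes were called and 329 had an unadjusted p below 0.05. All 6 GA libraries lay under the median of the vehicle group for Etv6, as they did for 464 genes in all (2.75%) and, among the members, for Ets2 as well. Fully separated groups occurred for 4 genes lower with GA (0.0237%) and 7 higher (0.0416%), and for none of the 10 members.

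**Figure D2:**
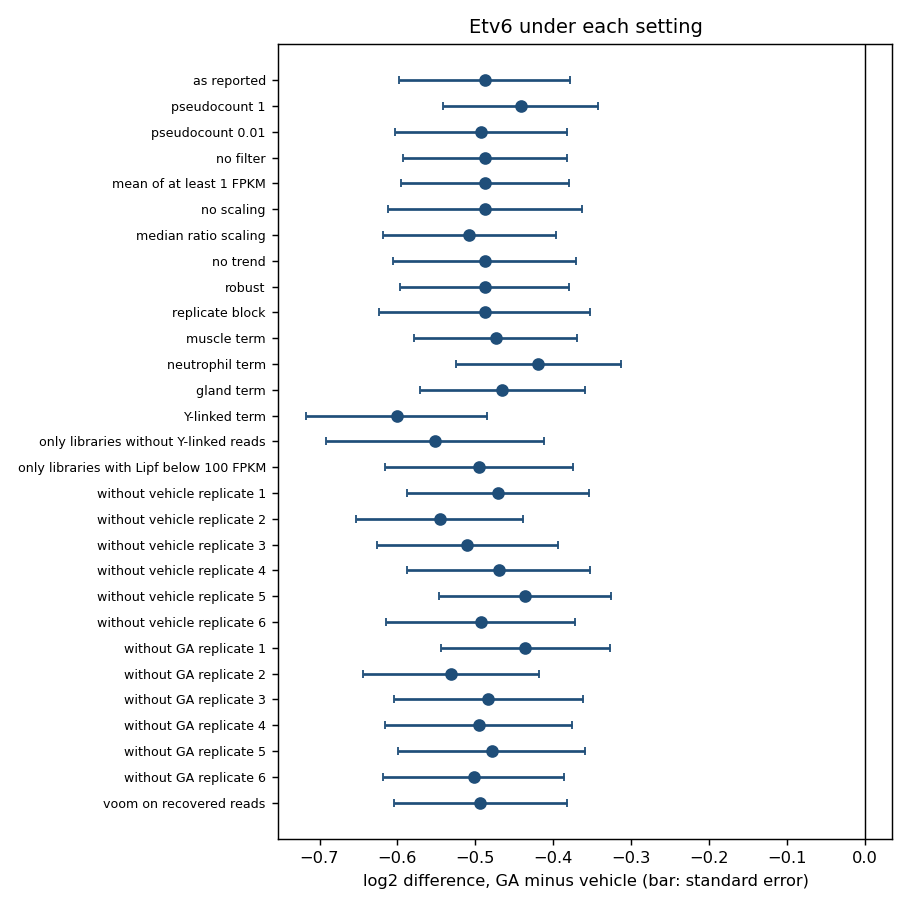
Log2 difference of Etv6, GA minus vehicle, under the reported setting and 28 alternatives (points), with the standard error of each fit (bars). All points lie between -0.60 and -0.42, left of the line at 0.

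The Ras-responsive pair Ets1 and Ets2 gave smaller differences. Ets2 ranged from 20.9 to 25.6 FPKM with vehicle (median 22.5) and from 17.95 to 22.4 FPKM with GA (median 20.7). The groups overlapped between 20.9 and 22.4 FPKM, and the log2 difference was -0.16 (standard error 0.09). Ets1 ranged from 1.16 to 5.38 FPKM with vehicle (median 3.55) and from 1.87 to 3.65 FPKM with GA (median 2.84). Its lowest value, 1.16 FPKM, belonged to vehicle library 1, without which the log2 difference moved from -0.19 to -0.47. The ratio of Etv6 to Ets2 within a library, which no scaling between libraries can change, was 0.389 to 0.516 with vehicle and 0.328 to 0.397 with GA, again with a small overlap.

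The FGF-responsive Etv4 and Etv5 had slightly higher mean log2 levels with GA, that of Etv4 with a wide standard error. Etv5 ranged from 5.44 to 9.84 FPKM with vehicle (median 6.62) and from 5.92 to 8.91 FPKM with GA (median 7.47), a log2 difference of 0.10 (standard error 0.15), which was 0.03 without vehicle library 2 and 0.20 without vehicle library 4. Etv6 was above Etv5 in all 6 vehicle libraries (ratio 1.10 to 1.96), and with GA the ratio ran from 0.833 to 1.25. Etv4 ranged from 4.42 to 11.1 FPKM with vehicle (median 5.66) and from 3.04 to 20.4 FPKM with GA (median 6.00). GA libraries 1 and 5 lay below every vehicle library and GA library 6 above every one. The log2 difference of 0.06 (standard error 0.41) became -0.27 without GA library 6 and 0.27 without GA library 1. Of 12 other genes of the FGF and ERK response, such as the phosphatase gene Dusp6 and the Sprouty genes, 10 were lower and 2 higher with GA and 0 were called (median log2 difference -0.21, against 0.0042 over all genes). Their differences ran from -0.58 for Phlda1 (standard error 0.40) to 0.19 for Il17rd (0.22), and 0 of the 12 had an unadjusted p below 0.05 in limma. The mean log2 level of the 12 had a median of 2.22 with vehicle and 2.17 with GA. It was highest in vehicle libraries 4 and 5 (2.70 and 2.71), against 2.12 to 2.24 in the other vehicle libraries and 1.71 to 2.60 with GA.

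Elf3, the epithelial member, ranged from 5.18 to 10.8 FPKM with vehicle (median 8.81) and from 4.16 to 23.9 FPKM with GA (median 6.08). For 5 of 6 GA libraries it lay under the median of the vehicle group, and GA library 6 lay above every vehicle library. Its log2 difference was -0.15 (standard error 0.35) and -0.48 without that library. Elf1, found in lymphoid and many other cells, ranged from 7.73 to 13.8 FPKM with vehicle (median 10.95) and from 7.58 to 13.3 FPKM with GA (median 9.48), a log2 difference of -0.17 (standard error 0.16), which ran from -0.28 without vehicle library 3 to -0.10 without GA library 2. Overlapping exons on the other strand made up 7.31% of Elf3 and 4.85% of Elf1. GA library 6 was also the highest GA library for the basal epithelium markers, and the part of its makeup in the Elf3 and Etv4 values was not tested. Of 11 other regulators of squamous epithelium, 8 were lower and 3 higher with GA, with 0 called (median -0.07), and without vehicle library 1 the counts turned to 3 lower and 8 higher (median 0.04). Trp63, the master regulator of basal epithelium, had 42.6 ± 8.58 FPKM with vehicle and 38.2 ± 9.62 FPKM with GA (SD, n = 6 each). The lymphoid list gave 8 lower and 4 higher, 0 called (median -0.10), at levels that were mostly below 1 FPKM, with 5 lower and 6 higher without GA library 6.

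The endothelial members Erg and Fli1 did not separate the groups. Erg ranged from 0.764 to 4.47 FPKM with vehicle (median 2.56) and from 2.01 to 3.51 FPKM with GA (median 2.27), and the log2 difference was 0.11 (standard error 0.32). Fli1 ranged from 0.744 to 3.50 FPKM with vehicle (median 1.88) and from 1.20 to 3.23 FPKM with GA (median 1.86), with a log2 difference of 0.05 (standard error 0.34). Vehicle library 1 was the lowest of all 12 for both, with 49 reads in the library with fewest for Erg and 48 for Fli1. The sign depended on the libraries: among those without Y-linked reads the differences were -0.37 and -0.36, and among those with low Lipf 0.41 and 0.34. Of 12 other endothelial regulators, 11 were higher and 1 lower with GA, with 0 called (median 0.32). The gene on the lower side was Sox7 (18.1 ± 4.49 FPKM with vehicle, 13.2 ± 4.33 FPKM with GA, SD, n = 6 each). Of 12 endothelial markers, all 12 had higher mean log2 levels with GA (median 0.20), also with 0 called, although 4 of them, Pecam1, Cdh5, Kdr and Egfl7, had lower mean FPKM. Vehicle library 1 carried much of this. Without it, 4 of the 12 markers were higher and 8 lower (median -0.05), and of the 12 regulators 8 were higher and 4 lower (median 0.15). Over the libraries free of Y-linked reads, 2 markers were higher and 10 lower (median -0.17), and the regulators were divided into 6 and 6.

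Spi1, the myeloid member, ranged from 1.11 to 7.497 FPKM with vehicle (median 2.42) and from 1.17 to 4.44 FPKM with GA (median 1.98). The highest values were those of vehicle library 5 and of GA libraries 1 and 2. The log2 difference was -0.13 (standard error 0.44), and it ran from -0.71 among libraries without Y-linked reads to 0.34 with a neutrophil term. Of 9 other myeloid regulators tested, 7 were lower and 2 higher with GA, with 0 called (median -0.21). In limma, 1 of the 9, on the lower side, had an unadjusted p below 0.05.

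The rest of the family showed how much ETS genes vary in this tissue. Of 17 other ETS genes listed, 13 passed the filter, of which 4 were higher and 9 lower with GA, with 0 called (median log2 difference -0.08). The members had 4 higher and 6 lower (median -0.14). Etv2, Fev, Spib and Spic were below a mean of 0.1 FPKM. Ehf, an epithelial factor related to Elf3, had the highest level of the family, from 35.5 to 73.3 FPKM over the 12 libraries, and Gabpa, a ubiquitous regulator of housekeeping and mitochondrial genes, the steadiest, from 9.57 to 11.4 FPKM. Elf5, an epithelial factor known from mammary and other glands, was the only one of the 13 with an unadjusted p below 0.05 in limma, with 1.23 to 2.59 FPKM with vehicle and 1.93 to 4.49 FPKM with GA (log2 difference 0.48, standard error 0.22, adjusted p = 1). The groups overlapped. Etv1, the third gene of the Etv4 and Etv5 group, was at 1.88 to 2.36 FPKM in the 3 libraries with high Lipf and at most 0.401 FPKM in the other 9. Its log2 difference was -0.47 (standard error 0.64), and 2 of the 3 high libraries were vehicle libraries. Spdef, a factor of secretory epithelium, reached 13.5 FPKM in vehicle library 5 and 6.14 FPKM in GA library 2. Of 10 corepressors and modifiers of ETV6 tested, 4 were higher and 6 lower, with 0 called (median -0.03), which turned to 6 higher and 4 lower without vehicle library 4, and Ncor1, which codes for a nuclear corepressor, differed by 0.08 (standard error 0.11).

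**Figure D3:**
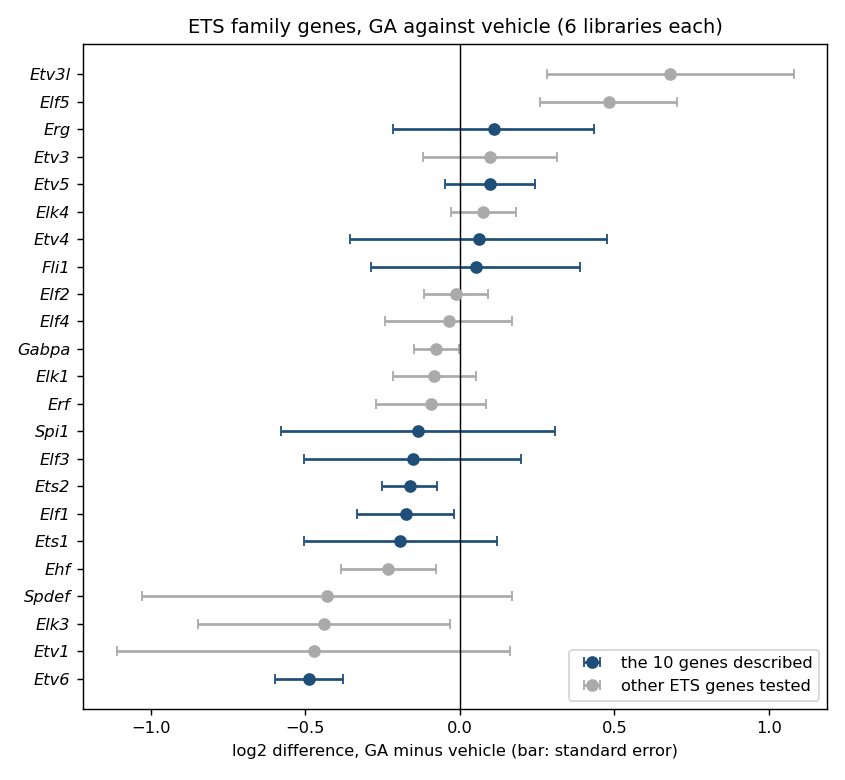
Log2 difference, GA minus vehicle, with its standard error for the 23 ETS family genes tested, ordered by the difference; dark points are the 10 genes described and grey points the other 13. Etv6, selected on this comparison, stands at -0.49. Of the genes next to it, the bars of Etv1 and Spdef reach past 0 and that of Elk3 (-0.44, standard error 0.41) ends short of 0.

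Variation between libraries was then compared with the cell type markers. Every value was centred within its group, which removes the difference between the group means. The spread within groups remains, and that of Etv6 entered the p-value on which it was selected. The values for Etv6 are therefore not free of that choice. The log2 level of each member was set against the mean log2 level of 7 marker lists, 70 pairs in all, with permutation tests of 100000 shuffles within the groups and Benjamini-Hochberg adjustment over the 70. The neutrophil list was left out of these tests because 3 libraries stood apart on it. Of the 70 pairs, 11 passed an adjusted p of 0.05 by Pearson's r and 8 by Spearman's rho. Single libraries matter here: without vehicle library 1, 6 pairs passed, and without the 2 libraries farthest from the median of each score, 1 pair passed.

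The vascular members followed the vascular markers. Fli1 rose with endothelium (r = 0.891, permutation adjusted p = 0.0028; rho = 0.916, permutation adjusted p = 0.0028), with r = 0.847 (unadjusted permutation p = 0.00339) after leaving out the 2 farthest libraries. Erg did so with r = 0.889 (permutation adjusted p = 0.0435; rho = 0.713, adjusted p = 0.0934), and r was 0.714 (unadjusted permutation p = 0.0458) without those 2. Vehicle library 1, with the lowest endothelial score, was also the lowest for both genes. Erg rose as well with macrophages (r = 0.781, permutation adjusted p = 0.0063; rho = 0.874, adjusted p = 0.00467; r = 0.805 without the 2 farthest) and with fibroblasts (r = 0.798, permutation adjusted p = 0.0063; rho = 0.881, adjusted p = 0.00735; r = 0.785). Fli1 rose with fibroblasts (r = 0.782, permutation adjusted p = 0.0419; rho = 0.832, adjusted p = 0.0365; r = 0.823) and with skeletal muscle (r = 0.868, permutation adjusted p = 0.017; rho = 0.818, adjusted p = 0.0365; r = 0.685, unadjusted permutation p = 0.0528). Both genes thus varied with several lists, and vehicle library 1 was at the low end of endothelium and muscle alike.

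Spi1 followed macrophages and, more closely, fibroblasts. With macrophages r was 0.847 (permutation adjusted p = 0.017; rho = 0.853, adjusted p = 0.0174) and 0.722 without the 2 farthest libraries (unadjusted permutation p = 0.038). With fibroblasts r was 0.940 (permutation adjusted p = 0.0028; rho = 0.944, adjusted p = 0.0028) and 0.899 (unadjusted permutation p = 0.00186). In these libraries the markers of both cell types were high together, foremost in vehicle library 5 and GA library 2. Which cells held the Spi1 transcripts was not tested. Whether the 2 values of r differ was not tested.

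Among the other members, Etv4 rose with basal epithelium (r = 0.870, permutation adjusted p = 0.00686; rho = 0.776, adjusted p = 0.0445). Without GA library 6 and vehicle library 4, the farthest on this score, r was 0.599 (unadjusted permutation p = 0.0305), and among the 9 libraries with low Lipf it was 0.928. Elf3 had r = 0.77 with the same list and did not pass, and r was 0.46 without those 2 libraries (unadjusted permutation p = 0.223). With differentiated epithelium its r was -0.05. Ets1 went down as differentiated epithelium went up (r = -0.864, permutation adjusted p = 0.0435; rho = -0.734, adjusted p = 0.0689), and this rests on vehicle libraries 1 and 3, without which r was -0.628 (unadjusted permutation p = 0.0711). Elf1 went down with skeletal muscle (r = -0.885, permutation adjusted p = 0.01; rho = -0.748, adjusted p = 0.0675; r = -0.826 without the 2 farthest, unadjusted permutation p = 0.014). Muscle markers varied strongly, with a summed level of 1209 to 10205 FPKM.

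Etv6, whose small spread within groups is part of its selection, followed none of the 7 lists past the threshold. Its r ran from -0.419 with T and NK lymphocytes (permutation adjusted p = 0.438) to 0.382 with basal epithelium (permutation adjusted p = 0.446). The values depended on the libraries taken. With macrophages r was 0.11 over all 12 libraries, -0.699 over the 9 with low Lipf and 0.845 over the 7 without Y-linked reads. The neutrophil list was not among the 7. Over the 9 libraries outside the group with high neutrophil markers, r with that list was -0.643, as a description. No r with it was taken over all 12 libraries. The high group went the other way. Vehicle libraries 4 and 5 and GA library 2 had the highest Etv6 values of their treatment groups. They ranged from 8.42 to 12.2 FPKM, against 6.02 to 10.8 FPKM in the other 9. For fibroblasts the sets of libraries named for macrophages gave r of 0.0625, -0.707 and 0.769. Without the 2 farthest libraries, vehicle library 5 and GA library 2, r was -0.702 with macrophages (unadjusted permutation p = 0.0381) and -0.710 with fibroblasts (unadjusted permutation p = 0.0321). Other lists moved as well, with -0.808 for differentiated epithelium over the 7 libraries free of Y-linked reads against -0.0486 over all 12, and -0.728 for skeletal muscle and -0.718 for T and NK lymphocytes over the 9 with low Lipf.

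**Figure D4:**
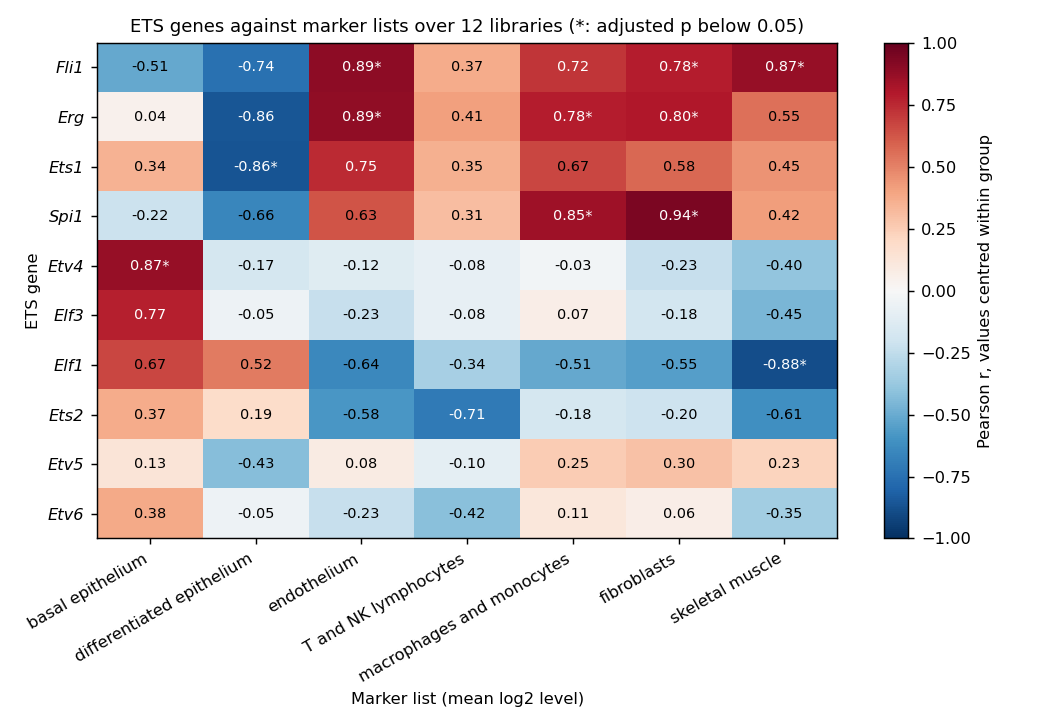
Pearson's r between each ETS gene (rows) and the mean log2 level of each marker list (columns) over 12 libraries, values centred within group; stars mark the 11 pairs with an adjusted p below 0.05. Erg and Fli1 are most positive with endothelium and Spi1 with fibroblasts, Etv4 with basal epithelium, and the row of Etv6 has no star.

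**Figure D5:**
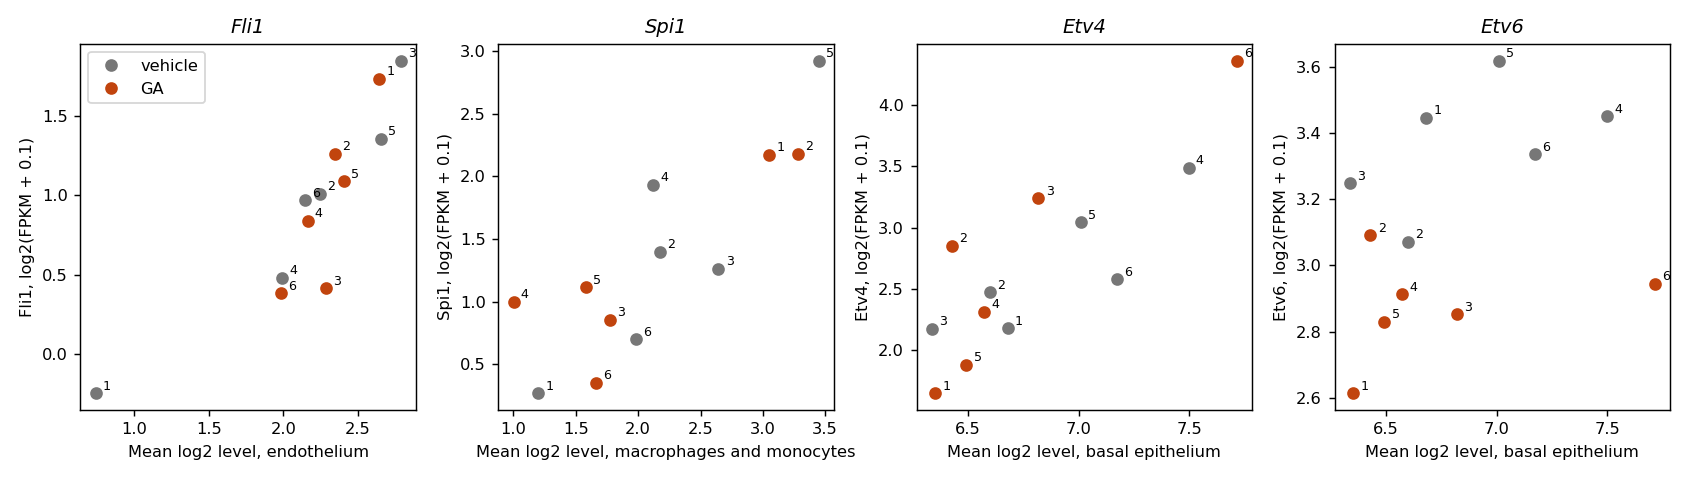
Log2 level of Fli1, Spi1, Etv4 and Etv6 (vertical axes) against the mean log2 level of a marker list (horizontal axes) in 6 vehicle and 6 GA libraries, numbered. Fli1, Spi1 and Etv4 rise along their lists in both groups, while the GA libraries of Etv6 lie below the vehicle libraries at like levels of basal epithelium, apart from GA library 2 at the level of vehicle library 2.

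The members also differed in the genes whose levels were most like theirs, by Pearson's r over the 12 libraries after centring within groups, among 12127 named genes averaging at least 1 FPKM. These are the largest of many values and are given without a test. For Etv6 they were Sec23b (r = 0.984), Asns (0.943), Dad1 (0.907), Pgm2l1 (0.902) and Galnt3 (0.896). Sec23b codes for a coat protein of vesicles leaving the endoplasmic reticulum, Dad1 for a subunit of the oligosaccharyltransferase, Galnt3 for an enzyme that starts mucin-type glycosylation, and Asns for asparagine synthetase. Over the 9 libraries with low Lipf, r with Sec23b was 0.973. Sec23b itself was at 9.69 ± 1.89 FPKM with vehicle and 8.17 ± 1.44 FPKM with GA (SD, n = 6 each; log2 difference -0.24, standard error 0.15, limma adjusted p = 1).

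The genes most like Etv4 were Slc20a1 (r = 0.979), Pmaip1, Homer3, Col7a1 and Zwint (0.964), of which Col7a1 codes for the anchoring collagen made by basal keratinocytes. For Elf3 they were Parp2 (0.935), Nhlrc3, Mcm8, Tmprss11e and Nup37 (0.910). For Elf1 they were Kif14 (0.970), Cstf2, Rbms1, Kifc1 and Plscr3 (0.953), with 2 mitotic kinesins, Kif14 and Kifc1. Ets1 was most like Sipa1 (0.961), Hacd1, Farp1, Ly6c1 and Eng (0.942), the last of which is endoglin of endothelium. Erg was most like Gimap4 (0.962), Lama4, Entpd1, P3h1 and Serpine2 (0.950), and Fli1 like Flot2 (0.950), Dennd5a, Tacc1, Klc4 and Nrp1 (0.944). For Spi1 they were Col1a2 (0.969), Cd53, Col3a1, Ncf4 and Ctsk (0.962), a mixture of leukocyte genes and collagens. Etv5 and Ets2 had weaker likenesses, from 0.875 (Calr3) to 0.820 (Gtdc1) for Etv5, with Casp9, S100g and Acad11 between, and from 0.907 (Slc10a3) to 0.851 (Rpl7-ps9) for Ets2, with Abhd2, Pqbp1 and Psma5-ps between. Psma5-ps and Rpl7-ps9 are pseudogenes whose reads may belong to their parent genes.

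Among themselves, the members formed no single block. The pairs most alike were Ets1 with Erg (r = 0.868), Erg with Spi1 (0.817), Etv4 with Elf3 (0.769), Erg with Fli1 (0.735) and Etv6 with Ets2 (0.721), and the most opposed pair was Elf1 with Fli1 (-0.733), all over 12 libraries with group means removed. Etv6 had r = 0.488 with Etv4, 0.00706 with Erg and -0.303 with Fli1. The points of these pairs share libraries, scaling and tissue makeup, and no test was made of them.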

How the data were processed

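RNA was taken from tongue tissue of 6 vehicle and 6 GA mice, 1 library per label. Reads had been aligned by the authors (HISAT2, mm10) and those mapped uniquely were counted for each gene (featureCounts); FPKM values were deposited. The strand setting is not given in the sources used here. Of 55463 rows, the 22965 without a gene name were left out. Whole reads were recovered from the FPKM with exon lengths of GENCODE M21 less 17 to 24 bases, a number found per library, and 97.8% to 98.3% of values of up to 8 reads were whole within 0.02. Depth limits mainly genes below 1 FPKM.

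Scaling between libraries used trimmed means of M values without weights (30% and 5% trimmed; factors 0.914 to 1.08). Genes averaging 0.1 FPKM or more were compared with limma 3.58.1 (R 4.3.3) on log2(FPKM + 0.1) with a trend, two-sided, with Benjamini-Hochberg adjustment and the thresholds of the study's methods (adjusted p below 0.1, absolute log2 difference of at least 0.58). As the deposited values are FPKM, a count test was not made the main test, and voom on recovered reads stood beside it. Genes of a list are counted as higher or lower by mean log2 levels. The script was tested on simulated data. Correlations and sign-flip tests used Python 3.11.15, numpy 2.4.6 and scipy 1.17.1. Alternatives were other pseudocounts, filters, scalings and variance models, terms for muscle, neutrophil, gland and Y-linked reads, voom on recovered reads, subsets of libraries and each library left out.

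The members and lists were chosen with earlier results of these data known. Genes named are the 10 members, the other ETS genes and the 5 genes most like each member. From each list the extremes of the difference or the gene nearest its median are named as well. Dusp6, Trp63, Ncor1, Sox7, Pecam1, Cdh5, Kdr, Egfl7, S100a8 and S100a9 were named with their values seen. Replicate numbers of the labels were taken as names.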

Additional observations from a re-analysis of the deposited data

Results flagged for a closer look

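Of 62 groups of 6 values examined, for the 23 ETS genes tested and 8 marker scores in each treatment group, 12 held a library whose gap to its neighbour, as a share of the whole range, was above Dixon's critical value of 0.625. Chance gives about 1 in 20 groups if the values are normal and the groups independent. Here gene levels were taken as FPKM without logs, and the groups share libraries, so that this rate is only a rough guide. Every library singled out was the highest of its group and none the lowest. GA library 6 stood out as the highest for Etv4 (20.4 FPKM, next 9.34; gap share 0.6381), Elf3 (23.9 FPKM, next 8.59; 0.776), Elf4 (5.96 FPKM, next 3.24; 0.825), Elk3 (18.2 FPKM, next 8.98; 0.6499) and the basal epithelium score (7.72, next 6.82 on the log2 scale; 0.658). It thus held several of the standing-out values together. GA library 2 was the highest for Etv1 (1.88 FPKM, next 0.397; 0.863) and for the neutrophil score (3.31, next 1.36 on the log2 scale; 0.7117).

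Vehicle library 4 stood out for Elk1 (2.48 FPKM, next 2.05; 0.6306) and Elk4 (7.81 FPKM, next 6.25; 0.7659), 2 ternary complex factors. Vehicle library 5 was the highest for Spdef (13.5 FPKM, next 3.27; 0.8307), and vehicle library 1 for the differentiated epithelium score (10.5, next 9.58 on the log2 scale; 0.6309). GA library 4 was the highest for Etv3l (1.006 FPKM, next 0.499; 0.6395), whose low reads did not come out whole with the exon length used. Etv6, Etv5, Ets1, Ets2, Elf1, Erg, Fli1 and Spi1 had no library of this kind in either group.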

How the results depend on the processing

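The log2 difference of Etv6 ran from -0.60 to -0.42 over 28 alternatives, and those of Etv5, Ets2 and Elf1 also kept their sign in all 28. Elf3 changed sign in 1, Ets1 and Erg in 2 each, Etv4 and Spi1 in 5 each and Fli1 in 6, with values smaller than their standard errors except for Erg (-0.37) and Fli1 (-0.36) over libraries without Y-linked reads and Spi1 (0.34) with a neutrophil term. The number of genes called was 0 under each alternative except unadjusted p-values below 0.1 (328 genes, 152 higher and 176 lower) and leaving out single libraries, which gave 0 to 1 (1 without vehicle library 4, none of the 10 members). A replicate block on the numbers of the labels gave 0 genes called and 244 at an unadjusted p below 0.05, with an Etv6 difference of -0.49 (standard error 0.14); libraries of the same number had correlations of -0.37 to 0.08, so the numbers did not pair them, and the block changed no other call. The count of pairs of member and marker list past the threshold was 6 to 13 when single libraries were left out and 1 without the 2 libraries farthest on each score. Steps in the order of levels that passed were 2 to 4 when single libraries were left out; 0 with vehicle libraries only and 0 with GA libraries only say nothing of stability, since 6 libraries can hardly pass. The cause of the other shifts was not tested. Members at about 50 reads in their lowest library, Erg, Fli1 and Spi1, are the least precisely measured. The subsets without Y-linked reads and with low Lipf were chosen after seeing the data.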
